A study of Mus musculus with 24 samples.

Results

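The genes described here are the interferon-response genes and their transcription factors, taken by symbol alone as every row of the deposited count table named as an interferon-induced gene (Ifi, Ifit and Ifitm symbols), an interferon receptor chain, an Isg gene, an interferon regulatory factor (Irf), an oligoadenylate synthetase (Oas), a guanylate-binding protein (Gbp), a STAT factor, Mx1 or Mx2. The symbols matched 53 of 18470 rows. Of these, 40 were among the 6779 genes that passed the filter on low counts and could be tested. By role, the matched rows were 5 interferon regulatory factors, 4 STAT factors, 20 antiviral and other interferon-induced effectors, 10 guanylate-binding proteins and 11 genes of the Ifi200 family, which includes DNA sensors. Another 3 rows match by name only: Irf2bp1 and Irf2bp2, which encode coregulators that bind IRF2, and Isg20l2, a nuclease named for its likeness to Isg20. No interferon receptor chain and neither Mx gene is analysed here, nor are Irf1, Irf3, Irf4, Irf9, Stat2, Stat3 and Stat6.

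The libraries are bulk RNA of sorted memory B cells, which the labels call csMBC, after house dust mite (HDM) extract given through the nose and a second exposure to that allergen 6 weeks later. There are 24 of them in 6 groups of 4. SCAP cKO mice gave 3 groups (lung CCR6+CD69+ cells, CCR6-CD69- cells of the lung, and circulating cells) and WT mice the matching 3. The genotype is given as SCAP fl/fl hCD20-TamCre for cKO and SCAP +/+ hCD20-TamCre for WT, so every group carries a Cre named for human CD20, a B cell surface protein, and in cKO mice SCAP was removed ahead of the recall response. Each group has 2 libraries in each of 2 labelled batches. Circulating libraries, too, carry a lung B cell source label. Ages are not given in the sources used here, and the labels do not say whether replicates came from separate animals, so the p-values below measure only the spread between these libraries.

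Type I and type II interferons signal through receptor-bound JAK kinases to STAT factors, which enter the nucleus and bind interferon-stimulated response elements (ISRE) or gamma-activated sites (GAS) in the promoters of their targets. IRF7 amplifies type I interferon production and is itself interferon-induced. IRF8 is made in B cells and dendritic cells without added interferon, takes part in B cell and germinal centre programmes, and is required by several dendritic cell lineages. STAT4 carries interleukin-12 and type I interferon signals, and STAT5A and STAT5B those of interleukin-2 family cytokines.

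Total counts over the rows analysed ran from 129025 to 8566243 per library, so that 3 counts, the limit used for a gene not detected, stood for 0.350 to 23.3 counts per 1000000 (CPM). Levels are given as CPM of the rows analysed, which do not correct for gene length, and are compared only within a gene. Between 14 and 42 of the 53 members had a count in a library. The shallowest libraries were cKO lung CCR6-CD69- replicate 4 and WT circulating replicate 2, and in cKO lung CCR6-CD69- replicate 1 and WT lung CCR6-CD69- replicate 2 the macrophage gene Chil3 took more counts than any other gene. The share of counts on ribosomal protein genes was 2.51% to 3.59% in batch 2, against 8.52% to 14.2% in batch 1. Scap itself ranged over 43.5 to 138 CPM in cKO and 66.2 to 134 CPM in WT lung CCR6+CD69+ libraries, 0 to 139 CPM in cKO and 115 to 170.2 CPM in WT lung CCR6-CD69- libraries, and 121 to 446 CPM in cKO and 0 to 203 CPM in WT circulating libraries. These ranges overlapped in each population, and since the sources used here do not name the deleted part of the gene, whole-gene counts do not check the genotype. The 4 B cell markers used (Cd74, Fcrla, Ms4a1, Pax5) were detected in all 24 libraries. They summed to between 7967 and 29161 CPM, most of it Cd74.

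The promoters of the members on which the results turn, Irf8, Irf7 and Ifi214, and of Isg15, the best known interferon target among the rows, are shown from 250 bases before to 50 bases after the gene start, as RefSeq gives them on build GRCm38.p6. Capitals mark matches on either strand to an ISRE core, which is GAAA, any 2 bases and GAAA again, or to a GAS, TTCNNNGAA. They lie at chr8:120736108-120736407 on the + strand (Irf8), chr7:141266375-141266674 on the - strand (Irf7), chr4:156200769-156201068 on the - strand (Isg15) and chr1:173535908-173536207 on the - strand (Ifi214).
Irf8: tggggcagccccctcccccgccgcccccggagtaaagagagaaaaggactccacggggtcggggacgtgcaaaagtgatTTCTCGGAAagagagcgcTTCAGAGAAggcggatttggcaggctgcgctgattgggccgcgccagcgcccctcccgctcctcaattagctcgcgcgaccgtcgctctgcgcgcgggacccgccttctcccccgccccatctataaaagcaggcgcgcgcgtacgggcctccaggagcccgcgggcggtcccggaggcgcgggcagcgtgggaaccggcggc
Irf7: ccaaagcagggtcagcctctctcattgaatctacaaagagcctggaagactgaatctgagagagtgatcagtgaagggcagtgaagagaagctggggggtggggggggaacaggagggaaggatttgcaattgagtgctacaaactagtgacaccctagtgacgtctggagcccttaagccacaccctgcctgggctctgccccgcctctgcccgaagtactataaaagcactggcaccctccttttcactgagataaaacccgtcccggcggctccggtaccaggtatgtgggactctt
Isg15: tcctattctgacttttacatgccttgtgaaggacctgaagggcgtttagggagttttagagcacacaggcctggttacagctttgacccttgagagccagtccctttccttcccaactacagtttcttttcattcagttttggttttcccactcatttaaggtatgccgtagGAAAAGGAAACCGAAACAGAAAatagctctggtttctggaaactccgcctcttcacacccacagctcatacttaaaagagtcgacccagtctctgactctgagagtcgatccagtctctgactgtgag
Ifi214: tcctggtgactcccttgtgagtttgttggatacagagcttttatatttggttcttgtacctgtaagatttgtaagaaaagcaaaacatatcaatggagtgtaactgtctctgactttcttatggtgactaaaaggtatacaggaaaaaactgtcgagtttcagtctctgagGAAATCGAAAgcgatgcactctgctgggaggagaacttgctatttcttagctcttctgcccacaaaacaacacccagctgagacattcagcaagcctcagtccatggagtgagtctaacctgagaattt
The Irf8 window held 2 GAS matches and no ISRE core, starting 171 and 153 bases before the gene start. In Isg15, 3 overlapping ISRE cores ran together from 78 bases before the start, and Ifi214 had 1 at 79 bases before it. The letters of neither motif occur in the Irf7 window, which says nothing of the factors that act there.

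Promoters could be read for 42 of the 53 members. An ISRE core was present in 23 of them (54.8%), against 3.99% of all 27025 genes with a promoter in the same reference table, and a GAS in 8 (19%), against 9.55%. Both shares describe letters in a 300-base window, and the rule chose genes already known as interferon targets. Among the transcription factors with a promoter, Irf2 and Stat4 held an ISRE core, Irf2 and Irf8 a GAS, and Irf5, Irf7, Stat5a and Stat5b neither.

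Irf8 was the member whose counts separated the populations most plainly. In cKO lung CCR6+CD69+ libraries it stood at 872, 749, 898 and 683 CPM, and in WT lung CCR6+CD69+ libraries at 602, 892, 579 and 929 CPM. Lung CCR6-CD69- libraries had 1187, 1917, 3066 and 1287 CPM in cKO and 1386, 1235, 955 and 982 CPM in WT. Circulating libraries had 4185, 2008, 4012 and 4173 CPM in cKO and 3125, 2946, 3185 and 2788 CPM in WT. Every lung CCR6+CD69+ library of either genotype lay below every lung CCR6-CD69- and every circulating library, with 1 circulating cKO library (replicate 2) far under the other 3 of its group. The means followed the same order, at 800.5 ± 102 CPM in cKO and 750.4 ± 185 CPM in WT lung CCR6+CD69+ cells, 1864 ± 864 CPM in cKO and 1140 ± 207 CPM in WT lung CCR6-CD69- cells, and 3594 ± 1060 CPM in cKO and 3011 ± 180.2 CPM in WT circulating cells (SD, n = 4 each).

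By edgeR's quasi-likelihood test across all genes, Irf8 was lower in lung CCR6+CD69+ than in circulating cells in cKO mice, with a log2 fold change of -2.36 ± 0.38 (SE, adjusted p = 2.79e-05), and in WT mice, with -2.03 ± 0.37 (adjusted p = 0.000396). Within batches the estimates were -2.05 in batch 1 (adjusted p = 0.0274) and -2.29 in batch 2 (adjusted p = 0.0399) for cKO cells. For WT cells they were -2.07 in batch 1 (adjusted p = 0.0262) and -1.92 in batch 2, which with 2 libraries a group did not pass (adjusted p = 0.21). Lung CCR6-CD69- cells lay between, at -1.13 ± 0.37 against circulating cells in cKO (adjusted p = 0.151) and -1.45 ± 0.37 in WT (adjusted p = 0.0883), neither past the threshold of 0.05. Set against lung CCR6-CD69- cells, lung CCR6+CD69+ cells gave -1.23 ± 0.37 in cKO (adjusted p = 0.157) and -0.58 ± 0.36 in WT (adjusted p = 1). DESeq2 did call the cKO difference between the lung populations (-1.52, adjusted p = 0.00169) and the WT difference between lung CCR6-CD69- and circulating cells (-1.44, adjusted p = 0.00733). So did edgeR without the shallowest libraries, at -1.42 (adjusted p = 0.0121) and -1.73 (adjusted p = 0.0047).

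No genotype difference of Irf8 passed the test. The cKO minus WT estimates were 0.20 ± 0.36 in lung CCR6+CD69+ cells (adjusted p = 1), 0.84 ± 0.36 in lung CCR6-CD69- cells (edgeR adjusted p = 0.61) and 0.53 ± 0.36 in circulating cells (adjusted p = 0.641) on the log2 scale in edgeR's test. In the lung CCR6-CD69- population cKO replicates 2 and 3 lay above every WT library, and the 8 values overlapped. Without cKO replicate 3, the highest, the estimate was 0.55 (edgeR adjusted p = 0.784). Batch 1 alone gave 0.48 and batch 2 alone 1.22 there.

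Irf7 showed the same order of populations with much wider spread. Lung CCR6+CD69+ libraries had 52.9, 43.5, 0 and 50.4 CPM in cKO and 21.1, 34.7, 55.9 and 37.6 CPM in WT. Lung CCR6-CD69- libraries had 319.8, 56.0, 119 and 0 CPM in cKO and 337, 75.0, 104 and 58.2 CPM in WT. Circulating libraries had 1206, 632, 949 and 560.0 CPM in cKO and 409, 81.3, 389 and 225 CPM in WT. All circulating cKO libraries lay above all circulating WT ones and above all lung libraries of either genotype, and both lung CCR6+CD69+ groups lay below their circulating counterparts without overlap. The 0 in cKO lung CCR6-CD69- replicate 4 came from the shallowest library, where 3 counts stand for 23.3 CPM, but the 0 in cKO lung CCR6+CD69+ replicate 3 came from a library of 2081557 counts, where they stand for 1.44 CPM.

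Against circulating cells, Irf7 was lower in cKO lung CCR6+CD69+ cells, at a log2 fold change of -4.78 ± 1.02 (edgeR adjusted p = 0.00489). The WT estimate of -2.91 ± 0.93 did not pass in edgeR (adjusted p = 0.167) and did in DESeq2 (-2.92, adjusted p = 0.0193). The cKO estimate was -4.36 in batch 1 (adjusted p = 0.0105) and -4.84 in batch 2, where it did not pass (adjusted p = 0.268). In circulating cells Irf7 averaged 837 ± 298 CPM in cKO and 276 ± 154 CPM in WT (SD, n = 4 each), a log2 fold change of 1.72 ± 0.89 that missed the threshold (edgeR adjusted p = 0.523). It was 919 CPM in cKO against 245 CPM in WT in batch 1, and 755 CPM against 307 CPM in batch 2. The genotype effect on Irf7 in lung CCR6+CD69+ cells minus that in circulating cells was -1.87 ± 1.24 (adjusted p = 0.973), so a difference between the populations was not shown.

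**Figure D1:**
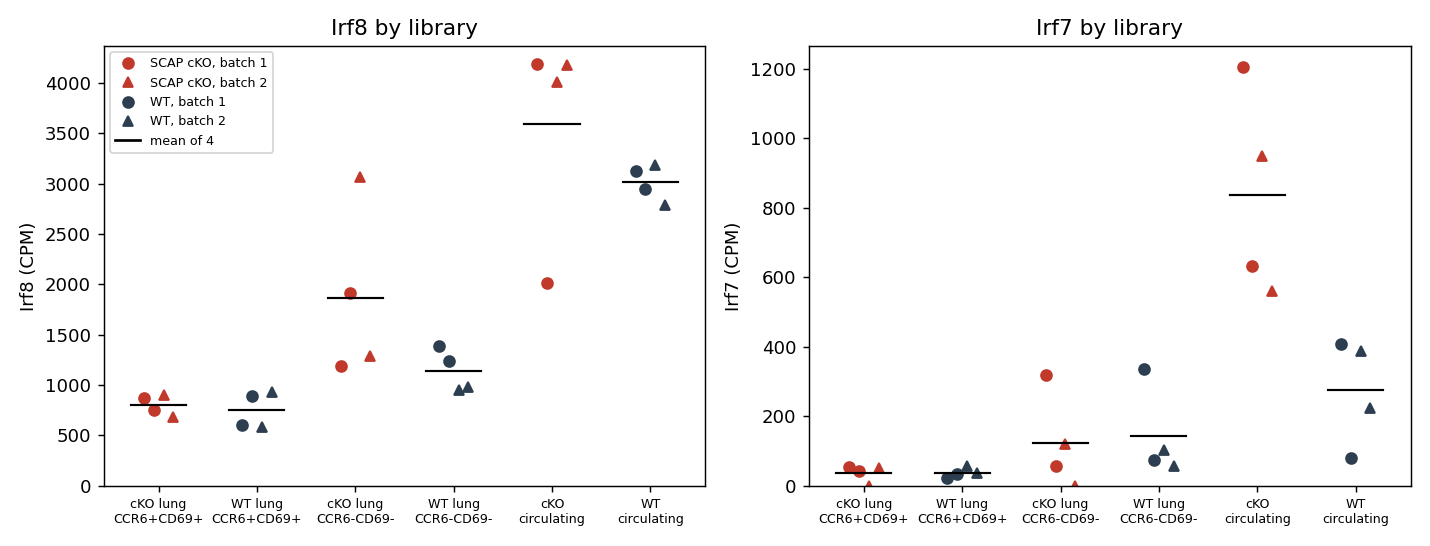
CPM of Irf8 (left) and Irf7 (right) in each of the 24 libraries by group, with circles for batch 1, triangles for batch 2, SCAP cKO in red, WT in dark blue, and a line at the mean of 4. Irf8 lies between 683 and 898 CPM in cKO and 579 and 929 CPM in WT lung CCR6+CD69+ libraries, and between 2008 and 4185 CPM in circulating cKO and 2788 to 3185 CPM in circulating WT libraries.

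Stat4 was the member with the smallest p for SCAP loss in lung CCR6-CD69- cells. It stood at 17.7, 8.42, 12.8 and 0 CPM in cKO, against 95.6, 47.1, 103 and 89.2 CPM in WT. The groups did not overlap, but the log2 fold change of -2.82 ± 1.02 had an adjusted p of 0.61 in edgeR and 0.0556 in DESeq2. It was -2.24 in batch 1 and -3.48 in batch 2. In the other populations the genotypes overlapped, with 89.3, 143, 17.8 and 70.3 CPM in cKO and 118, 111, 80.3 and 133 CPM in WT lung CCR6+CD69+ libraries, and 21.9, 27.2, 213 and 704 CPM in cKO and 445, 39.2, 175 and 142 CPM in WT circulating libraries. Within cKO, lung CCR6-CD69- cells gave -4.35 ± 1.11 against circulating cells (adjusted p = 0.0655 in edgeR, 0.000141 in DESeq2). That estimate was -0.99 in batch 1 and -5.70 in batch 2, since both circulating cKO libraries of batch 1 were low. The differences of the genotype effect that involve lung CCR6-CD69- cells were 2.46 ± 1.34 (lung CCR6+CD69+ minus lung CCR6-CD69-, adjusted p = 1) and -2.90 ± 1.43 (lung CCR6-CD69- minus circulating, adjusted p = 0.576) for Stat4.

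The paralogs Stat5a and Stat5b did not pass any test. Stat5a had 113, 99.95, 73.5 and 69.3 CPM in cKO lung CCR6+CD69+ libraries, against 46.1, 55.4, 50.05 and 52.4 CPM in WT ones, which did not overlap. In lung CCR6-CD69- cells it ranged over 0 to 209 CPM in cKO and 49.99 to 91.7 CPM in WT, and in circulating cells over 0 to 89.2 CPM in cKO and 0 to 204 CPM in WT. Stat5b averaged between 133 and 199 CPM in the 6 groups with wide spread and no separation.

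Of the other factors, Irf5, which acts downstream of Toll-like receptors, had 262, 368, 381 and 377 CPM in cKO lung CCR6+CD69+ libraries, against 85.1, 238, 160.0 and 196 CPM in WT ones. The groups did not overlap, yet the log2 fold change of 1.11 ± 0.75 was within the spread (edgeR adjusted p = 1). Circulating libraries had 72.9, 125, 248 and 33.5 CPM in cKO and 120.2, 205, 187 and 125 CPM in WT, and lung CCR6-CD69- libraries 0 to 279 CPM in cKO and 126 to 380.1 CPM in WT. Irf2, a repressor and activator of interferon targets, averaged between 136 and 205 CPM in every group. Irf2bp2 averaged between 332 and 593 CPM, whereas Irf2bp1 had 6.03, 6.27, 0.737 and 2.87 CPM in circulating cKO libraries, against 65.8, 50.5, 38.1 and 12.6 CPM in circulating WT ones (log2 fold change -3.04 ± 1.59, edgeR adjusted p = 0.521). That was the lone member lying wholly below WT in circulating cells.

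**Figure D2:**
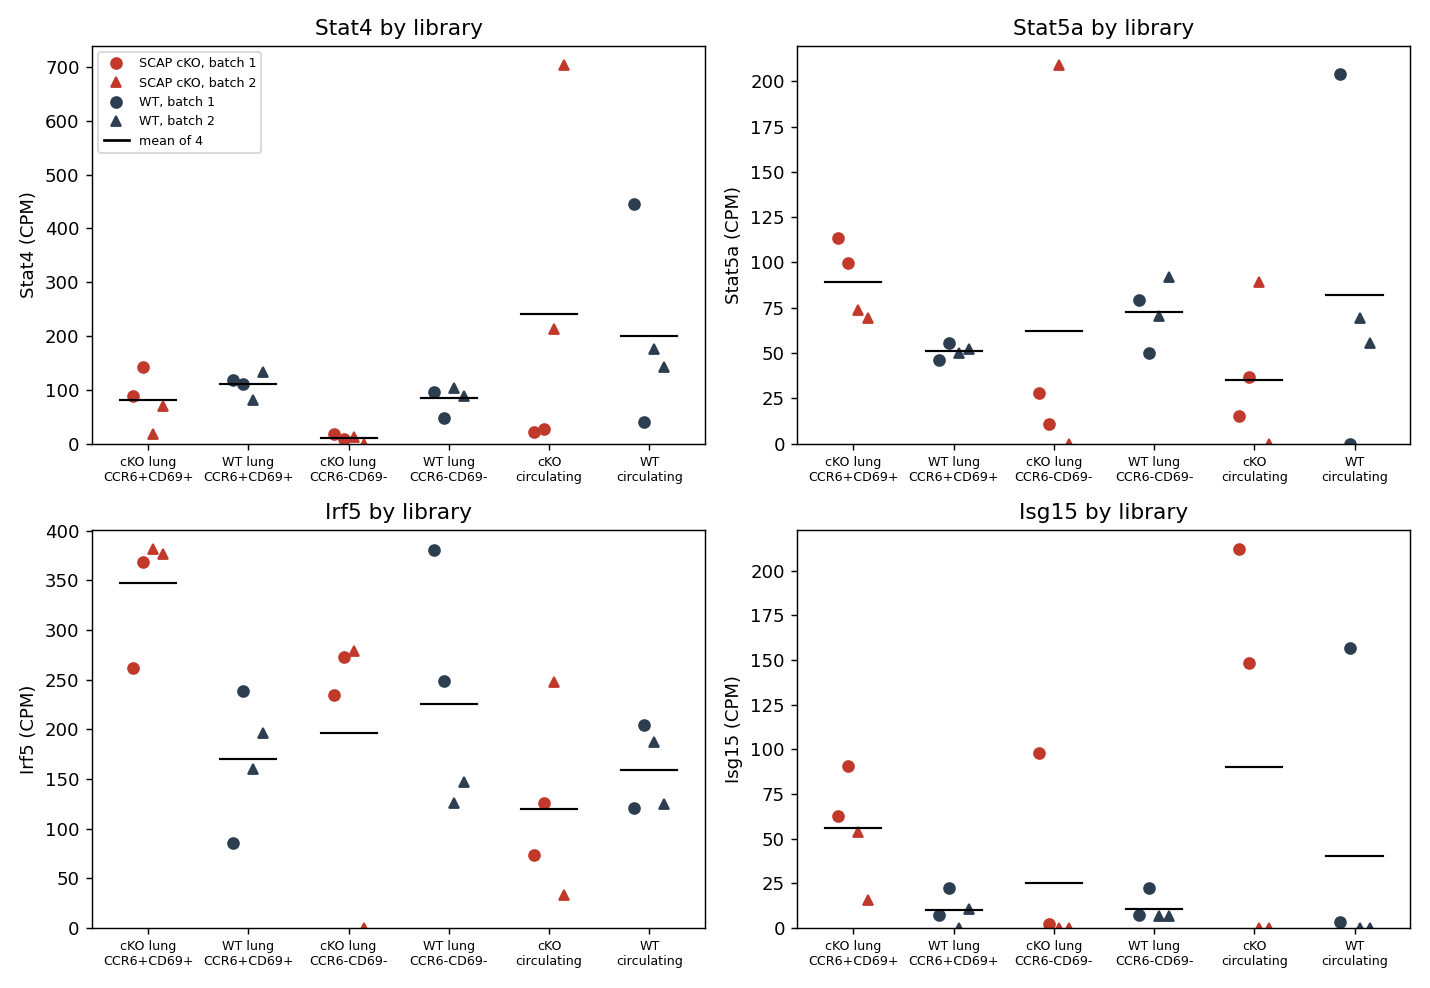
CPM of Stat4, Stat5a, Irf5 and Isg15 in each library by group, with circles for batch 1, triangles for batch 2 and a line at the mean of 4. Stat4 lies between 0 and 17.7 CPM in the 4 cKO lung CCR6-CD69- libraries and between 47.1 and 103 CPM in the 4 WT ones, and Isg15 is at 0 in all 4 circulating libraries of batch 2.

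The effectors, the direct targets by which an interferon response is usually read, were low and uneven. Isg15, a ubiquitin-like modifier, had 62.7, 90.9, 53.8 and 15.6 CPM in cKO lung CCR6+CD69+ libraries, against 7.35, 22.5, 0 and 10.5 CPM in WT ones. Lung CCR6-CD69- libraries had 97.8, 2.11, 0 and 0 CPM in cKO and 7.40, 22.1, 6.34 and 6.70 CPM in WT, and circulating libraries 212, 148, 0 and 0 CPM in cKO and 3.09, 157, 0 and 0 CPM in WT. All 5 values above 90 CPM came from batch 1 and no batch 2 library passed 53.8 CPM. The cKO minus WT estimate for lung CCR6+CD69+ cells was 2.74 ± 1.60 (edgeR adjusted p = 1). Leaving out 1 library moved it between 1.37 (without cKO lung CCR6+CD69+ replicate 3) and 6.60 (without WT lung CCR6+CD69+ replicate 4), with an adjusted p of 1 throughout. Batch 2 against batch 1 gave -4.42 ± 1.27 (adjusted p = 0.0183).

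The oligoadenylate synthetases, which sense double-stranded RNA, were low in most libraries. Oas2 had 2.74, 281, 0 and 0 CPM in circulating cKO libraries, against 1.33, 0, 0 and 0 CPM in circulating WT ones. Its log2 fold change of 7.33 ± 2.33 (edgeR adjusted p = 0.417) was 1.45 without cKO circulating replicate 2 (adjusted p = 0.873). Oas1a, of a cluster of near-identical genes among which reads may be split, had 7.67, 9.40, 0.737 and 0.478 CPM in circulating cKO libraries, against 5.75, 205, 13.8 and 42.8 CPM in WT ones (-3.69 ± 1.69, adjusted p = 0.439). DESeq2 called both, together with the Ifi200 gene Ifi213 at 5.48, 6.27, 0 and 0.478 CPM in cKO against 3.98, 140.1, 131 and 15.1 CPM in WT (edgeR -3.83 ± 1.69, adjusted p = 0.431). Oasl2 averaged 26.0 ± 25.1 CPM in cKO and 15.8 ± 13.1 CPM in WT lung CCR6+CD69+ cells (SD, n = 4 each). Oasl1 had no count in the 4 cKO lung CCR6-CD69- libraries, where 3 counts stand for up to 23.3 CPM, against 0.296, 0, 3.80 and 5.03 CPM in WT.

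Ifit2, which binds viral RNA, had 149, 1.196, 18.7 and 37.3 CPM in cKO lung CCR6+CD69+ libraries and 4.38, 5.22, 0 and 0 CPM in cKO circulating ones, and 11.2, 4.25, 3.20 and 14.1 CPM in WT lung CCR6+CD69+ libraries and 3.09, 19.6, 29.2 and 33.8 CPM in WT circulating ones. The genotype effect in lung CCR6+CD69+ minus that in circulating cells was 5.66 ± 2.42 for Ifit2 (edgeR adjusted p = 0.857). Ifitm1, a membrane protein that blocks viral entry, had 7.55, 0, 75.9 and 1.07 CPM in cKO lung CCR6+CD69+ libraries, against 0.117, 2.03, 0 and 2.53 CPM in WT ones (3.81 ± 2.16, edgeR adjusted p = 1), so that 1 library held most of the difference. Ifi44 stayed at or below 0.370 CPM in all 8 lung CCR6+CD69+ libraries, with 27.8, 0, 24.7 and 5.63 CPM in WT circulating ones (WT lung CCR6+CD69+ against WT circulating -6.45 ± 2.23, adjusted p = 0.198). Ifit1bl1 gave 4.47 ± 2.10 in WT lung CCR6-CD69- against WT circulating cells (adjusted p = 0.528), from 0.296, 11.8, 9.51 and 9.22 CPM against 0.442, 0, 0 and 0.433 CPM. No effector passed the test in any of the comparisons of genotype or population in edgeR, at unadjusted p-values under 0.05 for between 0 and 3 of 12 by comparison, against 2.29% to 14.2% of all genes. DESeq2 called Oas1a and Oas2 as above, and Ifit2 in cKO lung CCR6+CD69+ against cKO circulating cells.

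Guanylate-binding proteins, GTPases induced mostly by interferon gamma, were present in all groups and did not separate them by edgeR's test. DESeq2 called Gbp3 between the cKO lung populations (5.12% of all genes called). Gbp3 had 66.8, 64.9, 217 and 752 CPM in cKO lung CCR6-CD69- libraries, the highest in the shallowest library. DESeq2 also called Gbp6 in cKO lung CCR6+CD69+ (9.20, 77.2, 38.9 and 146 CPM) against cKO circulating cells (11.0, 13.6, 0 and 0 CPM), with 7.2% of all genes. Gbp2 averaged 53.3 ± 33.7 CPM in cKO and 58.2 ± 20.9 CPM in WT lung CCR6+CD69+ cells, 28.9 ± 33.6 and 46.3 ± 10.2 CPM in cKO and WT lung CCR6-CD69- cells, and 6.21 ± 7.29 and 21.8 ± 22.6 CPM in cKO and WT circulating cells (SD, n = 4 each). Gbp3 had 64.0, 58.0, 30.8 and 41.2 CPM in WT lung CCR6+CD69+ libraries, all below the 137, 104, 93.7 and 68.4 CPM of WT circulating ones. In cKO mice that order was absent, with 11.5, 75.3, 31.2 and 41.2 CPM in lung CCR6+CD69+ libraries and 8.22, 11.5, 0 and 323 CPM in circulating ones. Gbp7 averaged between 65.8 and 133 CPM in the 6 groups. Gbp9 had 14.2, 69.1, 119.8 and 153 CPM in WT lung CCR6-CD69- libraries, below the 207, 227, 288 and 167 CPM of WT circulating ones (-1.70 ± 0.81, edgeR adjusted p = 0.542). Gbp members lie in gene clusters on chromosomes 3 and 5 and are alike in sequence, so counts of single members are uncertain.

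The Ifi200 genes, 11 related genes on chromosome 1, some of which encode DNA sensors, carry the same uncertainty. Ifi203 was detected in all 24 libraries, averaging 639 ± 323 CPM in cKO and 637 ± 137 CPM in WT lung CCR6+CD69+ cells (SD, n = 4 each). Ifi214 was the family's only edgeR call between genotypes or populations. It was lower in cKO lung CCR6+CD69+ than in cKO circulating cells at a log2 fold change of -8.36 ± 2.24 (edgeR adjusted p = 0.0285). Its values were 0.985, 0.239, 0 and 0 CPM in cKO lung CCR6+CD69+ libraries, 4 counts in all, against 1.64, 292, 86.3 and 0 CPM in cKO circulating ones. Of the circulating counts, replicates 2 and 3 held nearly all. The call was lost in 9 of 34 alternatives. Without circulating replicate 2 the estimate was -4.72 (adjusted p = 0.367), and without each of the 4 cKO lung CCR6+CD69+ libraries in turn it was -10.06, -8.24, -7.97 and -7.93 (adjusted p = 0.0573, 0.142, 0.136 and 0.13). It was -7.86 in batch 1 alone (adjusted p = 0.145), -9.43 in batch 2 alone (adjusted p = 0.302) and -8.33 with no batch term (adjusted p = 0.0523). In WT mice Ifi214 had 2.45, 4.80, 7.27 and 0.362 CPM in lung CCR6+CD69+ libraries and 0.884, 2.80, 62.0 and 7.79 CPM in circulating ones.

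Ifi204, a family member also made by macrophages, had 0.657, 0, 0 and 0 CPM in cKO lung CCR6+CD69+ libraries, against 38.8, 0.421, 64.0 and 379.8 CPM in cKO lung CCR6-CD69- ones (-8.69 ± 2.47, edgeR adjusted p = 0.121). The difference was called by DESeq2 (-9.92, adjusted p = 2.01e-05), and by edgeR with RLE factors (-9.39, adjusted p = 0.0426) or no filter (-8.64, adjusted p = 0.0249). The highest CPM value came from the shallowest library and that of 38.8 CPM from a library led by Chil3. The 15 measured macrophage and monocyte markers summed to 128 to 3602 CPM in cKO lung CCR6+CD69+ and 1718 to 52139 CPM in cKO lung CCR6-CD69- libraries, and their part in the Ifi204 values was not tested. Ifi208 stood at 0.646, 1.26, 0 and 0 CPM in cKO lung CCR6-CD69- libraries, against 69.6, 4.41, 15.2 and 26.8 CPM in WT ones (-5.20 ± 2.07, edgeR adjusted p = 0.61). Ifi207 had 0.817, 1.66, 2.33 and 3.62 CPM in WT lung CCR6+CD69+ libraries, against 1.48, 47.1, 39.3 and 18.4 CPM in WT lung CCR6-CD69- ones (-3.59 ± 1.73, adjusted p = 1). Ifi211, named after its values were seen, had 41.4, 66.2, 80.2 and 111 CPM in cKO lung CCR6+CD69+ libraries, above all cKO lung CCR6-CD69- libraries (21.5, 1.26, 0 and 0 CPM) and all cKO circulating ones (4.93, 4.18, 0 and 0 CPM), at an edgeR adjusted p of 0.433 and 0.288. Besides the Ifi213 call above, DESeq2 called Ifi207 in WT lung CCR6+CD69+ against WT circulating cells (4.19% of all genes called). Between the cKO lung populations it called Ifi204 and Ifi214 (5.12%). Against cKO circulating cells it called Ifi211 and Ifi214 in lung CCR6+CD69+ (7.2%) and Ifi204 and Ifi213 in lung CCR6-CD69- cells (7.67%).

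**Figure D3:**
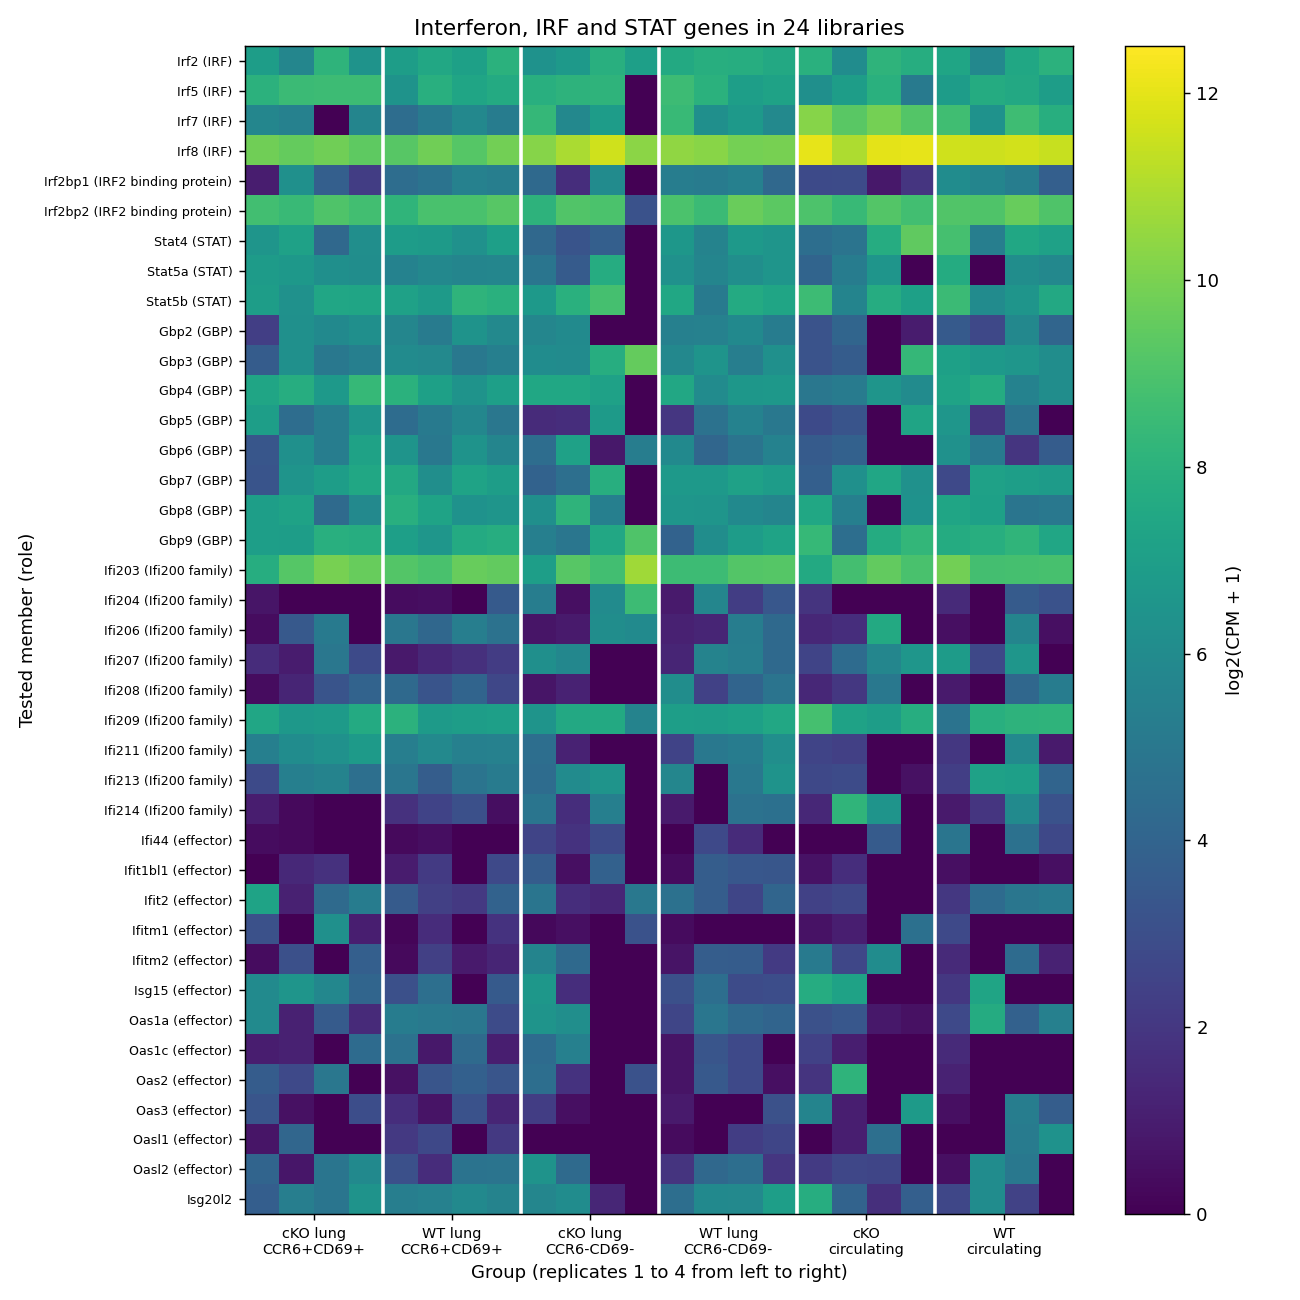
Level of 39 of the 40 tested members (rows, with role) in the 24 libraries (columns, replicates 1 to 4 from left to right within each group), as log2 of CPM plus 1. The Irf8 row is brightest in the circulating groups and dimmest in the lung CCR6+CD69+ groups, and dark cells crowd into the shallow cKO lung CCR6-CD69- replicate 4, in which 14 of 53 members had a count.

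The 13 members that did not pass the filter had few counts. Ifi202b, Ifi44l, Oas1d, Oas1e, Oas1f and Oas1h had none in any library. Gbp10 had 289 counts in 4 libraries, Oas1g 55 in 4, Ifit1 37 in 3, Gbp2b 22 in 1, Ifi205 5 in 2 and Ifitm7 1. Ifit1, a much used marker of interferon exposure, thus had counts in 3 of 24 libraries.

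Counted over the module, cKO against WT gave 0 of 40 members past the threshold in each population in edgeR, against 0% of all genes in each. Unadjusted p-values under 0.05 were reached by 0 of 40 members in lung CCR6+CD69+ cells, 3 in lung CCR6-CD69- cells and 3 in circulating cells, against 2.29%, 7.32% and 10.2% of all genes. DESeq2 called 0, 0 and 3 members, against 0.0738%, 1.33% and 3.44% of all genes. Each share is of all 6779 genes, but in lung CCR6-CD69- cells DESeq2 gave an adjusted p to only 2442 of them. Members lying wholly above WT were Irf5 and Stat5a in lung CCR6+CD69+ cells (2 of 40, against 0.974% of all genes) and Irf7 in circulating cells (1 of 40, against 0.708%), with none in lung CCR6-CD69- cells (0.148%). Members wholly below WT were Ifi208 and Stat4 in lung CCR6-CD69- cells (2 of 40, against 5.21%) and Irf2bp1 in circulating cells (1 of 40, against 1.7%), with none in lung CCR6+CD69+ cells (2.6%). The median log2 fold change of the 40 members was 0.05 in lung CCR6+CD69+, 0.12 in lung CCR6-CD69- and 0.01 in circulating cells, beside 0.04, -0.31 and 0.16 over all genes. The 3 differences of the genotype effect between populations called 0 members and 0% of all genes, with unadjusted p-values under 0.05 for 0, 3 and 3 members, against 3.47%, 5.41% and 8.48% of all genes. DESeq2 called no member there, against 0.0885%, 0.443% and 1.5% of all genes. Beside the Stat4 and Ifit2 values above, the smallest p-values there belonged to Ifi204 (-5.85 ± 3.12) and Oasl1 (5.48 ± 3.03) for lung CCR6+CD69+ minus lung CCR6-CD69- cells, Oas2 (-6.76 ± 2.73) and Ifi214 (-6.38 ± 2.58) for lung CCR6+CD69+ minus circulating cells, and Oas2 (-6.41 ± 2.78) and Isg20l2 (-4.65 ± 2.08) for lung CCR6-CD69- minus circulating cells, none past the threshold. Leaving out 1 library moved each of these 6 values by over 1.5 times. Without cKO circulating replicate 2 the Oas2 values were -0.87 and -0.44 and that of Ifi214 was -3.36. Oasl1 was 1.10 without cKO lung CCR6+CD69+ replicate 2, Isg20l2 was -1.58 without cKO circulating replicate 1, Ifi204 was -3.80 without WT lung CCR6+CD69+ replicate 4, and Stat4 (lung CCR6-CD69- minus circulating) was -1.63 without cKO circulating replicate 4.

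Between populations, lung CCR6+CD69+ against circulating cells gave the calls already described: 3 of 40 members lower in cKO (Irf8, Irf7 and Ifi214), against 1.53% of all genes called in either direction, and 1 of 40 lower in WT (Irf8), against 1.18%. None was called higher. DESeq2 called 6 in cKO (7.2% of all genes) and 3 in WT (4.19%), and unadjusted p-values under 0.05 were reached by 6 in each, against 12.8% and 11.6% of all genes. Wholly below the circulating libraries lay Irf7 and Irf8 in cKO (2.4% of all genes) and Gbp3, Irf7 and Irf8 in WT (3.72%). Gbp4, Ifi211 and Irf5 were among the 4 of 40 members wholly above them in cKO (5.37% of all genes), and none was in WT (8.38%). The member median was -0.04 in cKO and -0.31 in WT, beside -0.01 and 0.09 over all genes.

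Lung CCR6+CD69+ against lung CCR6-CD69- cells called 0 of 40 members in cKO (0.457% of all genes) and 0 in WT (0.295%) by edgeR. Unadjusted p-values under 0.05 were reached by 7 members in cKO (11.8% of all genes) and 1 in WT (3.33%), and DESeq2 called 5 in cKO (5.12%) and 0 in WT (0.797%). Irf8 lay wholly below in both genotypes and Irf7 in WT (0.605% of all genes in cKO and 3.89% in WT). Ifi211 and Stat4 lay wholly above in cKO (3.92%) and none in WT (2.07%). Lung CCR6-CD69- against circulating cells called 0 members in cKO (0.31%) and 0 in WT (0.177%) by edgeR. There 7 members in cKO (14.2% of all genes) and 4 in WT (8.63%) had an unadjusted p under 0.05, and DESeq2 called 4 in cKO (7.67%) and 1 in WT (1.92%). Irf7 and Stat4 lay wholly below in cKO (1.53%), Irf8 and Gbp9 in WT (1.68%), and no member wholly above in either (0.546% in cKO and 4.43% in WT). The population comparisons within a genotype share libraries and are not independent of each other.

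**Figure D4:**
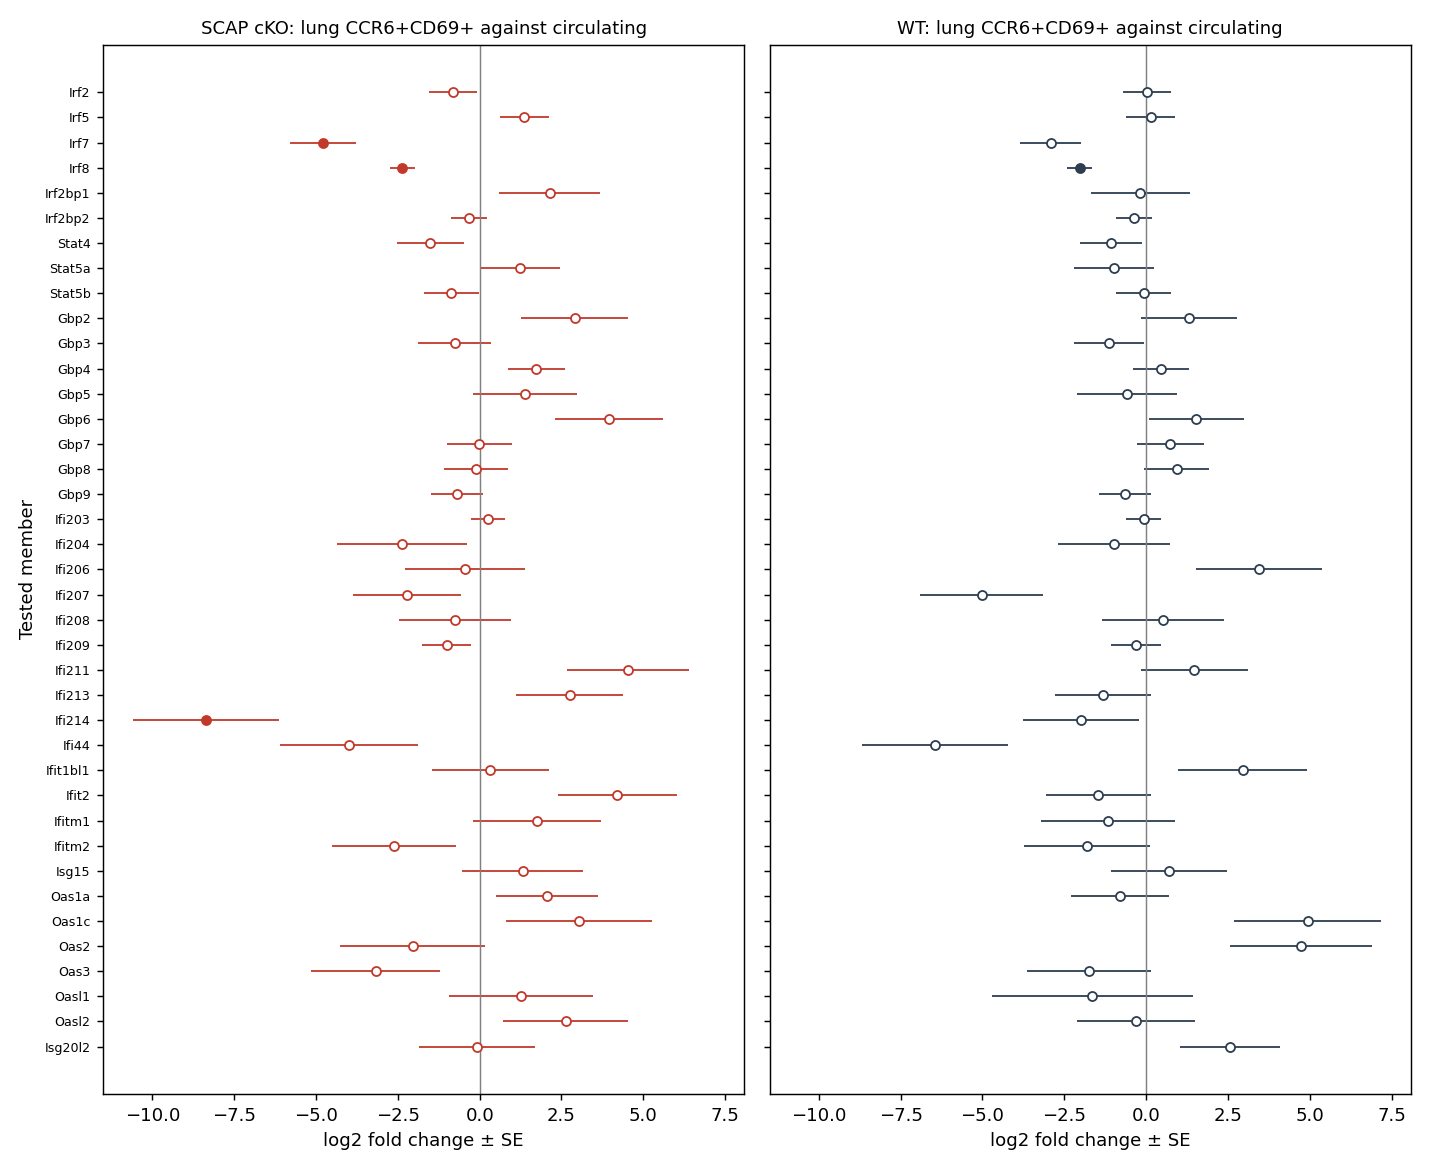
Log2 fold change with its SE, derived from the F statistic, for 39 of the 40 tested members, lung CCR6+CD69+ against circulating cells, in SCAP cKO (left) and WT (right). Filled points passed the adjusted p threshold of 0.05, namely Irf8, Irf7 and Ifi214 in cKO and Irf8 in WT, all below 0.

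Summed over the 53 members, CPM were 4889 ± 665 in cKO and 4560 ± 508 in WT lung CCR6+CD69+ cells, 5772 ± 1353 in cKO and 4598 ± 437 in WT lung CCR6-CD69- cells, and 8076 ± 1889 in cKO and 7077 ± 811 in WT circulating cells (SD, n = 4 each). Irf8 made up most of the difference between circulating and lung sums. Without it the sums were 4089 ± 697 and 3809 ± 506 CPM in cKO and WT lung CCR6+CD69+ cells, 3908 ± 882 and 3458 ± 534 CPM in cKO and WT lung CCR6-CD69- cells, and 4481 ± 842 and 4066 ± 678 CPM in cKO and WT circulating cells.

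Markers of plasmacytoid dendritic cells, in which Irf8 and Irf7 are both abundant, summed to less in every lung CCR6+CD69+ library than in any other. The 8 measured ones summed to 1082 to 1863 CPM in cKO and 1330 to 1770 CPM in WT lung CCR6+CD69+ libraries, with 2 to 8 and 4 to 8 of the 8 detected. They summed to 1912 to 3759 CPM in cKO and 2031 to 2470 CPM in WT lung CCR6-CD69- libraries, and 2624 to 7404 CPM in cKO and 2899 to 4800 CPM in WT circulating libraries. Of these, Spib and Tcf4 are also made by B cells and held most of the sum in each group. Tcf4 averaged more in lung CCR6+CD69+ (992 CPM in cKO, 1142 CPM in WT) than in lung CCR6-CD69- cells (790 and 967 CPM). So did Zbtb46 (29.6 and 24.3 CPM, against 11.6 and 10.6 CPM). That gene was on the marker list used but is better known as a marker of classical dendritic cells. Spib, Cox6a2, Dntt, Lifr and Pltp averaged less in lung CCR6+CD69+ cells than in both other populations of the same genotype. Ccr9, a marker of plasmacytoid dendritic cells on that list, averaged 4.07 ± 4.74 CPM in cKO and 6.66 ± 9.77 CPM in WT lung CCR6+CD69+ cells, 1002 ± 1169 and 279 ± 101 CPM in cKO and WT lung CCR6-CD69- cells, and 559.7 ± 387 and 489 ± 214 CPM in cKO and WT circulating cells (SD, n = 4 each).

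The 8 measured NK cell markers summed to 0 to 20.4 CPM in cKO and 5.82 to 14.4 CPM in WT lung CCR6+CD69+ libraries, 0 to 47.2 CPM in cKO and 0 to 26.0 CPM in WT lung CCR6-CD69- libraries, and 1812 to 2543 CPM in cKO and 1247 to 2831 CPM in WT circulating ones. Of the 8, between 0 and 8 were detected in a cKO and 0 and 7 in a WT lung CCR6-CD69- library. NK cells also make STAT4. The 6 measured T cell markers summed to 15.5 to 462 CPM in cKO and 83.8 to 329.7 CPM in WT lung CCR6-CD69- libraries. In that population Stat4 was lower in every cKO library than in every WT one. B cell markers summed to 20200.0 to 26552 CPM in cKO and 19071 to 29161 CPM in WT lung CCR6+CD69+ libraries, 7967 to 20194 CPM in cKO and 15950.0 to 25185 CPM in WT lung CCR6-CD69- libraries, and 9315 to 12200.0 CPM in cKO and 9390.5 to 15145 CPM in WT circulating ones. Cd74 held most of each B cell sum. Cd74, Ms4a1 and Fcrla averaged less in circulating than in lung CCR6+CD69+ cells. Pax5 averaged 1003 and 986 CPM in cKO and WT circulating cells, against 967 and 1096 CPM in lung CCR6+CD69+ cells. The part of the cell-type markers in the Irf8, Irf7 and Stat4 values was not tested. In such bulk samples, fewer cells of a type and less RNA per cell cannot be told apart.

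**Figure D5:**
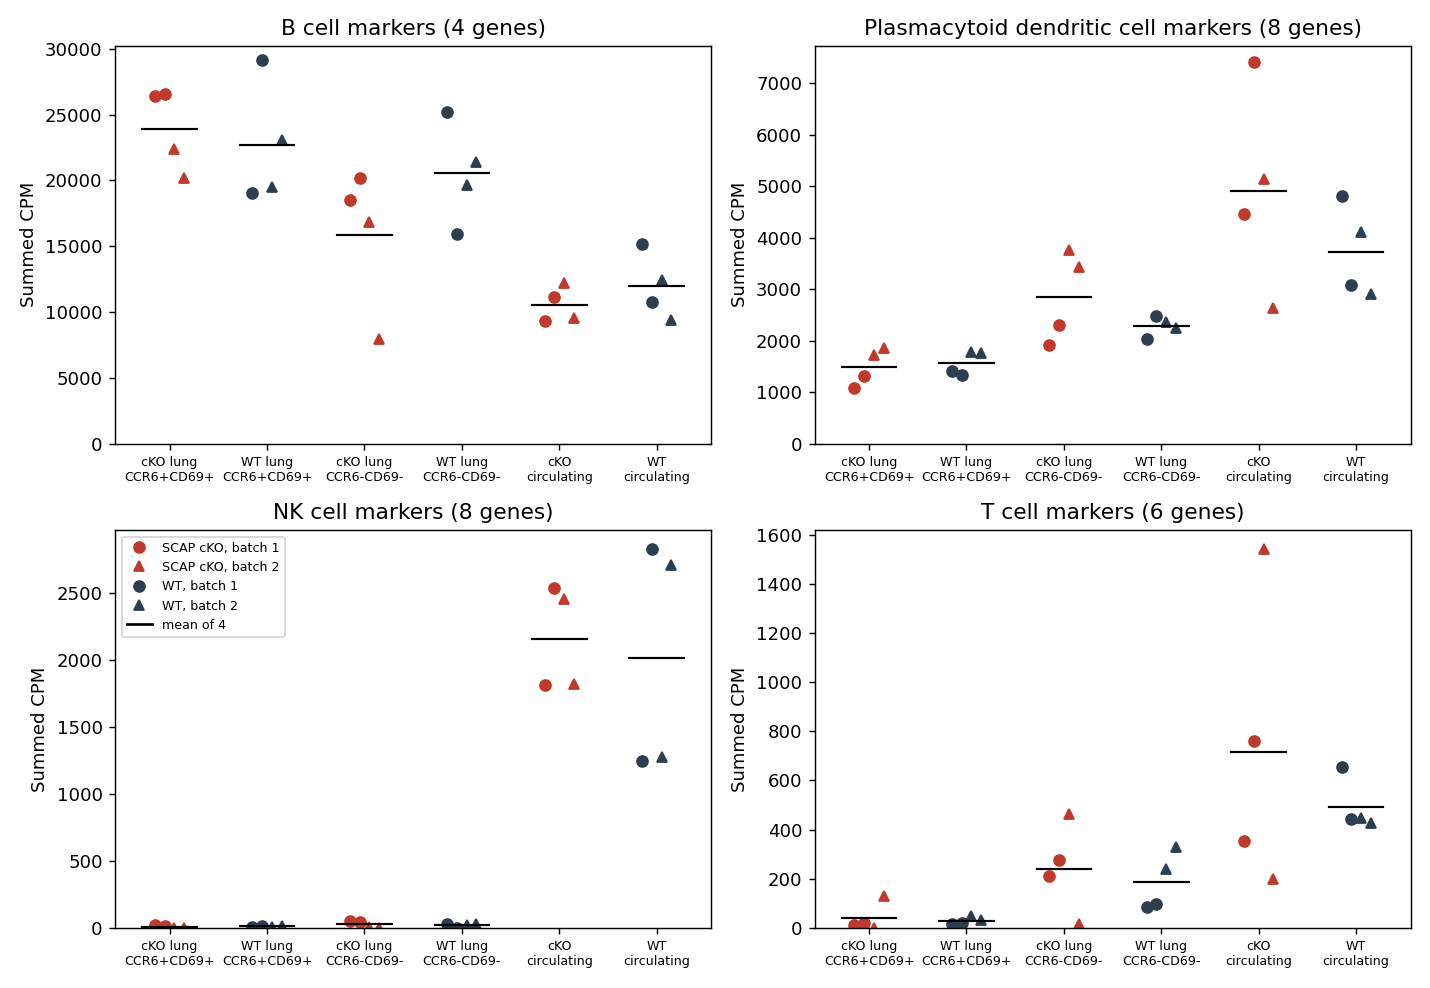
Summed CPM of the measured B cell, plasmacytoid dendritic cell, NK cell and T cell markers in each library by group, with circles for batch 1, triangles for batch 2 and a line at the mean of 4. NK cell markers lie between 1247 and 2831 CPM in the 8 circulating libraries and at or below 20.4 CPM in the 8 lung CCR6+CD69+ ones. The B cell sum, most of it Cd74, is lower in the circulating than in the lung CCR6+CD69+ libraries.

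Batch itself moved 3 of 40 members, against 7.82% of all genes called by edgeR. Unadjusted p-values under 0.05 were reached by 4 (19.8% of all genes), and DESeq2 called 5 (16%). Batch 2 was lower than batch 1 for Isg15, as given above, and for Gbp8 (-2.16 ± 0.61, adjusted p = 0.0154), and higher for Ifi206 (3.70 ± 1.22, adjusted p = 0.0465). The Ifi206 call was lost in 18 of 30 alternatives, with an estimate of 2.95 to 4.37 and an adjusted p of 0.0205 to 0.21 leaving out 1 library, the lowest estimate coming without cKO circulating replicate 3. Gbp8 averaged 38.1 CPM in batch 2 and 138 CPM in batch 1 of cKO lung CCR6+CD69+ cells, and 86.1 and 193 CPM in WT ones. Ifi206 averaged 94.8 CPM in batch 2 and 1.87 CPM in batch 1 of cKO circulating cells, and 25.2 and 0.221 CPM in WT ones. In batch 2 of the circulating groups, replicate 3 held all of these counts in cKO and all but 1 in WT. Since every group has 2 libraries in each batch, the batch term is separate from genotype and population.

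Other genes of the interferon pathway were counted in the same way. Of a list of 88 pathway genes outside the rule, 51 had a row and 47 were tested. In cKO against WT the numbers at unadjusted p under 0.05 were 2 in lung CCR6+CD69+, 3 in lung CCR6-CD69- and 5 in circulating cells, against the 2.29%, 7.32% and 10.2% of all genes given above. None passed the threshold in edgeR, against 0% of all genes in each. In DESeq2 0, 3 and 0 did, against 0.0738%, 1.33% and 3.44% of all 6779 genes. For lung CCR6-CD69- cells only 2442 of the 6779 had a DESeq2 adjusted p, so the 1.33% understates the share among those. The DESeq2 calls were the receptor kinases Jak2 and Tyk2 and the RNA sensor Rigi. Jak2 spanned 158 to 3433 CPM in cKO and 152 to 320.2 CPM in WT lung CCR6-CD69- libraries (2.11 ± 0.70, edgeR adjusted p = 0.61), and Tyk2 101 to 2108 CPM in cKO and 51.5 to 205 CPM in WT (2.24 ± 0.75, adjusted p = 0.61). Rigi spanned 0 to 40.9 CPM in cKO and 88.2 to 176 CPM in WT there (-2.59 ± 0.98, adjusted p = 0.61). Its ranges did not overlap, and 5.21% of all genes lay wholly below WT in that population. The highest cKO values of Jak2 and Tyk2 came from replicate 4, the shallowest library, and the other 3 cKO libraries reached at most 226 CPM for Jak2 and 346 CPM for Tyk2. Without the libraries under 500000 counts, an alternative added after the values were seen, the estimates were 0.26 ± 0.58 for Jak2 (edgeR adjusted p = 0.973), 0.74 ± 0.62 for Tyk2 (adjusted p = 0.931) and -1.98 ± 0.90 for Rigi (adjusted p = 0.901).

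Among the population comparisons, edgeR called 1 pathway gene, Sp100, a nuclear body protein, lower in cKO lung CCR6-CD69- than in cKO circulating cells, where it spanned 0 to 225 CPM against 303 to 869.9 CPM (-2.84 ± 0.70, adjusted p = 0.0494). That was 1 of 47 tested in that comparison, against 0.31% of all genes called. The lambda interferon receptor chain Ifnlr1 averaged 80.3 ± 27.1 CPM in cKO and 44.7 ± 19.5 CPM in WT lung CCR6+CD69+ cells, against 5.19 ± 6.24 CPM in cKO and 1.66 ± 3.31 CPM in WT circulating cells (SD, n = 4 each). Those differences, 4.52 ± 1.76 in cKO and 5.10 ± 1.78 in WT, were called by DESeq2 and not by edgeR (adjusted p = 0.262 and 0.204). Lung CCR6-CD69- cells averaged 21.7 ± 21.4 CPM in cKO and 27.5 ± 23.5 CPM in WT. The WT difference from circulating cells was called by DESeq2 too (4.27 ± 1.71, edgeR adjusted p = 0.433). DESeq2 also called Jak2, Rigi, Tyk2 and Zbp1 between the cKO lung populations (5.12% of all genes). Against cKO circulating cells it called Tgtp1 and Zbp1 in lung CCR6+CD69+ (7.2%) and Jak2, Rigi and Sp100 in lung CCR6-CD69- cells (7.67%). By batch, edgeR called 1 of 47 higher in batch 2, Rnf213 (1.02 ± 0.29, adjusted p = 0.0171). It called 1 lower, the immunoproteasome subunit Psmb9 (-1.93 ± 0.36, adjusted p = 8.08e-05). Of all genes, 7.82% were called in either direction.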

How the data were processed

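Bulk RNA was measured in 24 libraries. The deposited values are raw counts per gene, whole numbers that the authors did not normalize as far as the file shows; FastQC, STAR, Salmon and the build mm39 are named, without roles, per the submitters' processing notes, and how reads were assigned to genes or strands is not given in the sources used here. Counts were tested with edgeR 4.0.16 in R 4.3.3 (limma 3.58.1; TMM factors, filterByExpr by group, robust quasi-likelihood fit, terms for the 6 groups and for batch, all libraries sharing 1 spread), with Benjamini-Hochberg adjustment over 6779 genes and a threshold of 0.05. The common dispersion was 1.2. The SE given is the size of the log2 fold change over the square root of the test's F statistic, not a fitted standard error. CPM use the summed rows without TMM factors. DESeq2 1.42.0, other scalings and filters, each batch alone, a replicate block, and leaving out each library, the shallow ones or the Chil3-led ones were alternatives.

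Named genes are every member past the threshold, the 3 tested members with the smallest p in each comparison, and preset role genes; members without overlap between groups were named after their values were seen. The members and lists were chosen with earlier results of these data known. Replicate numbers were not taken as pairing samples: over 60 same-numbered pairs the correlation of deviations ran from -0.0451 to 0.228, and within batches from -0.199 to 0.0861. The scripts were tested on simulated data. Values of some genes are not reported here.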

Additional observations from a re-analysis of the deposited data

Results flagged for a closer look

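In 14 of 96 groups of 4 libraries examined, 1 library lay far from the other 3. For normally distributed values, chance alone would flag about 5% of such groups. These CPM hold many zeros and come from libraries of uneven depth, so an excess over chance is not shown. Transcription factors gave 5 of these. Stat5a was 209 CPM in cKO lung CCR6-CD69- replicate 3, against 0 to 27.8 CPM in the others. Irf5 was low at 262 CPM in cKO lung CCR6+CD69+ replicate 1, against 368 to 381 CPM, and 0 CPM in cKO lung CCR6-CD69- replicate 4, against 234 to 279 CPM. Irf7 was 337 CPM in WT lung CCR6-CD69- replicate 1, against 58.2 to 104 CPM, and Irf8 was low at 2008 CPM in cKO circulating replicate 2, against 4012 to 4185 CPM.

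Effectors gave 4. Isg15 was 97.8 CPM in cKO lung CCR6-CD69- replicate 1 (others 0 to 2.11 CPM), 22.1 CPM in WT lung CCR6-CD69- replicate 2 (6.34 to 7.40 CPM) and 157 CPM in WT circulating replicate 2 (0 to 3.09 CPM). Oas1a was 61.4 CPM in cKO lung CCR6+CD69+ replicate 1 (1.196 to 11.0 CPM). Gbp3 was 323 CPM in cKO circulating replicate 4 (0 to 11.5 CPM) and Gbp7 226 CPM in cKO lung CCR6-CD69- replicate 3 (0 to 22.3 CPM). Ifi206 was 189.5 CPM in cKO circulating replicate 3 (0 to 2.09 CPM) and 49.9 CPM in WT circulating replicate 3 (0 to 0.442 CPM), and Ifi214 was 62.0 CPM in WT circulating replicate 3 (0.884 to 7.79 CPM). Of the 14, 1 was in the shallowest library, cKO lung CCR6-CD69- replicate 4. The Isg15 values were in the Chil3-led libraries, cKO lung CCR6-CD69- replicate 1 and WT lung CCR6-CD69- replicate 2, and in WT circulating replicate 2, under 500000 counts.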

How the results depend on the processing

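Of 1551 values recomputed for named genes, 1480 kept their direction and side of the threshold, 26 passed it anew, 29 no longer did and 16 changed sign. The causes were not tested. Irf8 in cKO lung CCR6+CD69+ against circulating cells passed in each batch alone and without the shallowest or Chil3-led libraries. With counts this shallow and uneven, small differences are not detectable here.

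The calls lost were 18 of Ifi206 by batch, 9 of Ifi214 in cKO lung CCR6+CD69+ against circulating cells, and 1 each of Irf7 (cKO) and Irf8 (WT) in lung CCR6+CD69+ against circulating cells, both in batch 2 alone. Of 46 results for named genes, 20 moved by over 1.5 times leaving out 1 library, among them 1 that had passed, that of Ifi214.

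DESeq2 called more members, as it did of all genes in each of the 13 comparisons (0.0738% to 16% of genes, each given beside its count above): 3 for cKO against WT in circulating cells, 3 for WT lung CCR6+CD69+ against circulating, 1 for WT lung CCR6-CD69- against circulating, 5 for cKO lung CCR6+CD69+ against lung CCR6-CD69-, 6 for cKO lung CCR6+CD69+ against circulating, 4 for cKO lung CCR6-CD69- against circulating and 5 for batch. With no filter the counts were 2 for WT lung CCR6+CD69+ against circulating, 1 for WT lung CCR6-CD69- against circulating, 1 for cKO lung CCR6+CD69+ against lung CCR6-CD69- and 2 for cKO lung CCR6-CD69- against circulating. RLE factors gave 2 for cKO lung CCR6+CD69+ against lung CCR6-CD69- and 1 for cKO lung CCR6-CD69- against circulating. Batch 2 alone gave 0 for WT and 1 for cKO lung CCR6+CD69+ against circulating. Without the libraries under 500000 counts, WT lung CCR6-CD69- against circulating and cKO lung CCR6+CD69+ against lung CCR6-CD69- each had 1.

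Leaving out 1 library at a time gave 1 to 2 calls for WT lung CCR6+CD69+ against circulating (2 without cKO lung CCR6+CD69+ replicate 3), 2 to 3 for cKO lung CCR6+CD69+ against circulating, 2 to 3 for batch, and 0 to 1 for WT lung CCR6-CD69- against circulating and cKO lung CCR6+CD69+ against lung CCR6-CD69- (each 1 without cKO lung CCR6-CD69- replicate 4) and for cKO lung CCR6-CD69- against circulating (1 without WT circulating replicate 2, cKO circulating replicate 1 or cKO circulating replicate 2). All genotype comparisons, their differences, and WT lung CCR6+CD69+ against lung CCR6-CD69- stayed at 0.

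The replicate block ended 1 call described in the text, that of Ifi214 in cKO lung CCR6+CD69+ against circulating cells (-7.85, edgeR adjusted p = 0.117). Irf8 there was -2.34 (adjusted p = 4.05e-05) and Irf7 -4.58 (adjusted p = 0.00217) with the block.

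Changes of sign concerned values that had not passed. Irf7 in cKO against WT lung CCR6+CD69+ cells was 0.17 with no batch term, 1.01 in batch 1 alone, 0.036 without the libraries under 500000 counts, and between -0.73 and 0.31 leaving out 1 library. In lung CCR6-CD69- cells Irf7 was 0.036 in batch 1 alone, 0.37 without those libraries, and between -1.04 and 0.66 leaving out 1 library. Differences of the genotype effect were 0.048 for Ifi204 (lung CCR6+CD69+ minus lung CCR6-CD69-, batch 1 alone), 0.45 for Oas2 (lung CCR6+CD69+ minus circulating, batch 2 alone), 0.14 for Oas2 (lung CCR6-CD69- minus circulating, batch 2 alone), 0.024 and 0.030 for Irf8 (lung CCR6+CD69+ minus circulating, batch 1 alone and without the small libraries) and 1.01 for Stat4 (lung CCR6-CD69- minus circulating, batch 1 alone). Oas2 in circulating cells had no value in batch 2 alone, where both genotypes had 0 counts. RLE factors shifted the median of all genes by -0.19 for cKO lung CCR6+CD69+ against lung CCR6-CD69- and 0.19 for cKO lung CCR6-CD69- against circulating cells.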
